A study of Mus musculus with 2 samples.

Results

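Granzyme-poor natural killer (NK) cells were the barcodes of the tumors that carried NK receptor transcripts and few granzyme transcripts. Transcripts of CD3, Cd79, C1q and Siglech were limited to traces, while other T-cell, B-cell, phagocyte and dendritic-cell genes were not limited. The members were chosen by raw UMI counts, a UMI being 1 captured transcript molecule. A member had at least 2 UMIs of Ncr1, Klrb1c and Klre1 together, fewer than 5 of Gzma, Gzmb and Gzmc, at most 1 of Cd3e, Cd3d and Cd3g, at most 2 of C1qa, C1qb and C1qc, at most 1 of Cd79a and Cd79b, and fewer than 3 of Siglech. Of 12815 barcodes with at least 200 genes and at most 10% mitochondrial UMIs, 213 met the rule, 128 in the control and 85 in the library labelled knockout. These 15 genes chose the members, and their values are given as a description only.

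The tumors were subcutaneous B16F10 melanomas, a mouse melanoma line, in C57BL/6 hosts at day 14. Both groups carried Usp18 with both alleles floxed (Usp18f/f), and the knockout group also carried LysM-Cre, which is expressed from the Lyz2 locus in myeloid cells and not in NK cells. Usp18 is a protease, itself induced by interferon, that takes the ubiquitin-like ISG15 off other proteins and limits signalling from the type I interferon receptor. Live CD45+ cells of 4 tumors per group were pooled into 1 droplet library per group, so no difference between the libraries has a replicate check and no test was made.

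NK cells are innate lymphocytes that kill through perforin and granzymes released from lytic granules. They secrete interferon gamma and the chemokines Ccl3, Ccl4, Ccl5 and Xcl1. In mice they mature from cells with IL-7 receptor and Kit toward cells with Ly49 receptors (the Klra genes), Zeb2 and a full granzyme load. Type 1 innate lymphoid cells (ILC1) share Ncr1, Klrb1c and T-bet with NK cells, but depend little on Eomes and often carry IL-7 receptor, Cxcr6 and the death ligand Tnfsf10.

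Total UMIs of the members were 352812 in the control and 345652 in the library labelled knockout, with medians of 2325.5 and 2897 per cell. Granzyme-rich NK cells, which met the same limits but had 5 or more granzyme UMIs, had medians of 2262 and 2932. Usp18 (chr6:121245906-121270917, GRCm38) was higher, not lower, where the label implies its loss. In C1q-, Csf1r- or Ccr2-bearing phagocytes it was at 18.5 CPM, UMIs per 1e6 UMIs of the class, in the control and 86.6 in the library labelled knockout, while Lyz2 was at 7460 and 15.6. These 3' counts do not read the floxed part if it lies upstream, and its position is not given in the sources used here. In granzyme-poor NK cells Usp18 was at 17.0 CPM (6 UMIs, Poisson 95% interval 6.24 to 37.0) and 34.7 (12 UMIs, 17.9 to 60.6), intervals that overlap. Lyz2, a phagocyte gene, was at 539 CPM in the control members, with 63.2% of its UMIs in 1 cell, and had 0 UMIs in the members labelled knockout, which allows up to 8.68 CPM (a floor of 3 UMIs), and control B cells held 930 CPM of it. The libraries also differed in the sex of the cells, since 62 control members had Y-linked and no Xist UMIs against 11 in the other library. Only Xist was seen in 29 and 65 members. No member shared its barcode with the other library.

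Of the 213 barcodes, 12 (3 in the control and 9 in the library labelled knockout) had at least 1% of their UMIs in marker genes of dendritic cells, macrophages, melanoma, B cells, plasmacytoid dendritic cells or neutrophils. Of these 12, 9 carried no Ncr1 and no Klrb1c UMI and entered through Klre1 alone. The deepest, with 44526 UMIs, held 626 melanoma UMIs and 12.9% of all UMIs of the members in its library. The others labelled knockout held 6040 to 13177 UMIs each and the 3 control ones 3117 to 8915, against member medians of 2897 and 2325.5. Their UMIs count in the class totals, so the CPM of genes they lack are lower with them, most in the library labelled knockout. The NK core list outside the rule summed to 8021 CPM in the control members and 6906 in those labelled knockout. Without the 12 barcodes it summed to 8251 and 9059 CPM. A control granzyme-rich barcode of 88890 UMIs, with 9 granzyme UMIs, held 1255 melanoma UMIs and 20.4% of the UMIs of its class. Values are therefore also given without the barcodes of at least 1%, a limit chosen after the values were seen.

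Granzyme-poor NK cells made up 1.81% of the kept control barcodes (exact Clopper-Pearson 95% interval 1.51 to 2.14) and 1.48% of those labelled knockout (1.19 to 1.83). The ratio was 0.82 (0.63 to 1.08). Of the NK cells of both kinds, 51.6% were granzyme-poor in the control library (45.2 to 58.0, 128 of 248) and 40.5% in the library labelled knockout (33.8 to 47.4, 85 of 210), a ratio of 0.78 (0.64 to 0.96). Without the barcodes of other lineages the shares were 52.3% and 38.4%. Among cells with Xist only they were 49.2% and 40.1%, and among cells with Y-linked UMIs only 56.9% and 61.1%, the last of 18 cells. All such intervals cover counting error and not the spread between mice. The limit of 5 granzyme UMIs is a raw count, so the split also depends on depth. Granzyme-poor and granzyme-rich cells labelled knockout had medians of 2897 and 2932 UMIs, against 2325.5 and 2262 in the control. The shares were not corrected for this.

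A count of 0 granzyme UMIs was the most frequent. In the control library 63 members had 0 granzyme UMIs, 22 had 1, 14 had 2, 16 had 3 and 13 had 4, and just outside the limit 10 cells had 5. In the library labelled knockout the numbers were 47, 10, 13, 6 and 9, with 4 cells just outside. Far above the limit, 74 and 106 cells had 10 or more granzyme UMIs. At the NK receptor limit, 27 and 20 members had exactly 2 UMIs, and 75 and 45 barcodes that met every other limit had only 1. Traces of CD3 were few, with 9 members in each library holding 1 CD3 UMI.

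NK genes outside the rule were present in the members as a class, and were set beside B cells, which should lack them. Txk, a Tec family kinase of T and NK cells, was at 607 CPM in the control members and 373 in those labelled knockout, against 17.4 in control B cells. Klrk1, the activating receptor NKG2D, was at 964 and 796 CPM, against 7.55 and 13.1 in B cells. Klra7, the inhibitory Ly49G receptor, was at 329 and 148 CPM and had 0 UMIs in control B cells. Txk and Klra7 together summed to 935 and 521 CPM, and to 985 and 788 CPM without the 12 barcodes of other lineages. The Klra genes are near-identical copies, and their counts cannot be fully told apart.

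T-cell, B-cell and granulocyte markers were low, while dendritic-cell, monocyte and, in 1 library, melanoma genes were not. The dendritic-cell list summed to 2965 and 8974 CPM and the melanoma list to 62.4 and 1855, which were 357 and 190, and 63.1 and 48.7, without the 12 barcodes. The monocyte list, which holds Ccr2 and Ly6c2, summed to 2143 and 1204 CPM, and to 2135 and 1350 without them. The T-cell list outside the rule (Cd4, Cd8a, Cd8b1, Cd5, Cd6 and Lat) summed to 53.9 and 28.9 CPM in the members, 27.6 and 26.4 in granzyme-rich cells, and 653 and 814 in cells with both NK receptor and CD3 transcripts. The ILC2 genes Il1rl1, Il13, Il5, Areg, Il17rb and Calca and the ILC3 genes Il23r, Il22, Il17a, Il1r1 and Cxcr5 had 0 UMIs in the members of both libraries. Other genes of these lists were present, and the ILC2 list held 120 and 90 UMIs, mostly Gata3, Rora and Lmo4, and the ILC3 list 55 and 33, nearly all Kit. Of the B-cell list, 2 and 1 UMIs were seen. Neutrophil, erythroid, and basophil or mast-cell lists held 18 and 5, 0 and 1, and 0 and 0 UMIs. Macrophage genes outside the rule summed to 111 and 307 CPM and plasmacytoid dendritic-cell genes to 298 and 448 CPM. Without the 12 barcodes these were 108 and 48.7, and 285 and 301 CPM.

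Set beside granzyme-rich NK cells of the same library, the granzyme-poor cells carried more transcripts of IL-7 receptor, Cxcr6, Rora, Kit and Ltb. The granzyme limit chose both classes, so this contrast is a description and nothing in it was tested. Of 5341 genes with at least 20 UMIs over both classes in each library, 18 (0.337%) were at least 2-fold higher in granzyme-poor cells in both libraries and 45 (0.843%) at least 2-fold lower. Ratios are log2 of CPM + 5 over CPM + 5, and the median of all genes was -0.01 in the control and -0.04 in the other. In the control library 49% of all genes lay above 0, and 46.3% in the other. Without the barcodes of other lineages the counts were 19 of 4628 genes (0.411%) and 37 (0.799%), and 48.8% and 50.4% of genes lay above 0, 27.8% above and 28.6% below 0 in both libraries.

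Il7r (chr15:9505788-9530176), the receptor chain for IL-7, stood furthest apart. It was at 170 CPM in granzyme-poor and 20.7 in granzyme-rich control cells, 8.22-fold (counting interval 4.05 to 18.8). In the library labelled knockout it was at 217 and 24.7 CPM, 8.79-fold (4.93 to 16.9). At 1000 UMIs per cell Il7r was seen in 17.1% and 19.5% of the members and in 0.833% and 0.806% of granzyme-rich cells. The share among B cells, at median depths of 1545.5 and 1824.5 UMIs before thinning, was 0.842% and 0.244%. The share in granzyme-rich cells rested on 1 cell in each library. Before thinning Il7r was seen in 3.33% and 6.4% of granzyme-rich cells, 2.54% and 1.20% of B cells, and 25.8% and 31.8% of the members. In both libraries the members stood above granzyme-rich cells.

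Cxcr6 (chr9:123806475-123811760), a chemokine receptor that retains lymphocytes in tissue, was at 51.0 against 9.20 CPM in the control and 72.3 against 17.6 in the other, 5.55-fold (1.83 to 22.5) and 4.10-fold (1.90 to 9.57). Rora, an orphan nuclear receptor of innate lymphoid cells, was at 179 against 43.7 and 78.1 against 31.7 CPM, 4.09-fold (2.41 to 7.23) and 2.46-fold (1.31 to 4.74). Gpr183, an oxysterol receptor that positions lymphocytes, was at 128 against 18.4 and 139 against 26.4 CPM, with 39.6% of the UMIs of the members labelled knockout in 1 cell. Gpr183 was also seen in 16.7% and 15.1% of B cells, more than in the members (12.2% and 9.76%). Without the 12 barcodes its log2 ratio was 2.93 in the control and 1.37 in the other. Socs2, a feedback inhibitor of cytokine signalling, was at 85.0 against 11.5 and 40.5 against 10.6 CPM, and Socs3 at 85.0 against 25.3 and 86.8 against 42.3.

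The ILC1-like list had 9 genes outside the rule in the feature table, of which 6 had enough UMIs to be measured. All 6 lay above 0 in both libraries, where 25.1% of all genes did, with medians of 1.58 and 1.95. Of the 6, 3 (Il7r, Cxcr6 and Tmem176a) were past 2-fold in both. The summed level of the list was 2.91-fold higher in granzyme-poor cells in the control and 3.31-fold higher in the library labelled knockout. Without the barcodes of other lineages these were 3.90-fold and 3.64-fold, with medians of 1.81 and 1.83. Tnfsf10 (TRAIL) was at 90.7 against 25.3 CPM in the control and at 69.4 against 59.9 in the other. The other 3 genes of the list had too few UMIs to be measured. Itga1, a tissue-residency integrin, had 2 and 1 UMIs in the members, Zfp683, a residency regulator, had 0 and 2, and Cd200r1, an inhibitory receptor, had 13 and 4.

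Genes of early NK stages were mostly above 0, 3 of 14 past 2-fold in both libraries. All 14 genes of that list lay above 0 in the control and 10 did in the library labelled knockout, with medians of 0.84 and 0.49. Their summed level was 1.65-fold (1.53 to 1.77) in the control and 1.02-fold (0.95 to 1.09) in the other. Without the barcodes of other lineages the numbers were 12 in each library, the medians 0.63 and 1.04, and the sums 1.34-fold and 1.46-fold. Kit, the stem cell factor receptor, was at 153 against 36.8 CPM and 95.5 against 42.3, 4.16-fold (2.35 to 7.79) and 2.26-fold (1.29 to 3.99). Ltb, the membrane partner of lymphotoxin alpha, was at 621 against 209 and 636 against 310 CPM. It was also abundant in B cells, where 49.8% and 56.6% of cells had a UMI. Tcf7, the factor TCF-1 of early and memory-like lymphocytes, was at 360 against 170 CPM in the control and 153 against 111 in the other. Cd7 was at 411 against 223 and 327 against 166 CPM. The Il7r, Kit and Cd7 orders held in both libraries, while Xcl1 was at 680 against 667 CPM and 561 against 1178. The share of cells with an Xcl1 UMI at 1000 UMIs was 32.5% against 22.5% and 36.6% against 33.9%, so in the library labelled knockout its order was not that of the CPM.

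**Figure D1:**
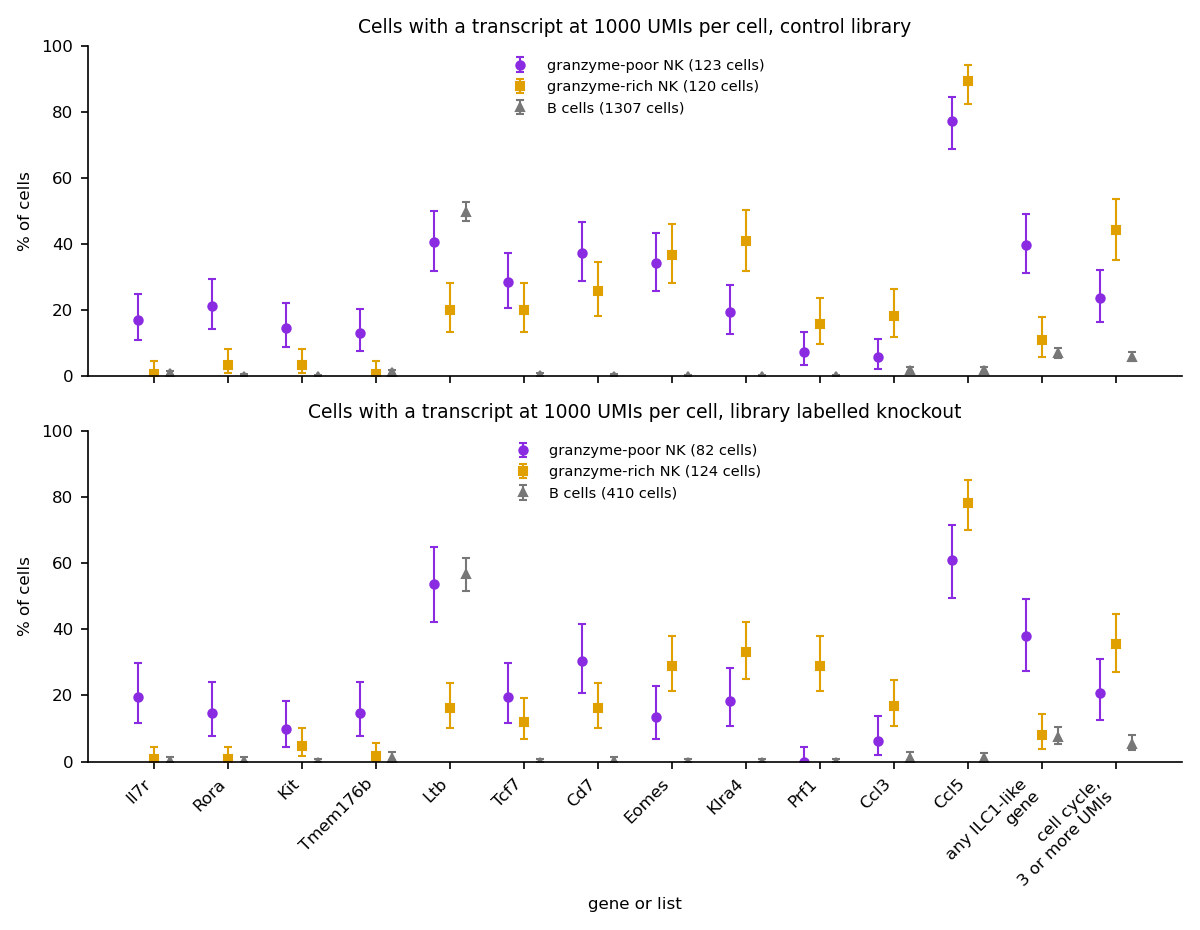
Percent of cells with at least 1 UMI (3 for the cell cycle list) after thinning each cell to 1000 UMIs, in granzyme-poor NK cells, granzyme-rich NK cells and B cells of each library. Points are shares and bars are exact Clopper-Pearson 95% intervals for counting error. In both panels Il7r, Rora, Kit, Tmem176b and Ltb sit higher in granzyme-poor than in granzyme-rich cells, and Klra4, Prf1, Ccl3, Ccl5 and the cell cycle list sit lower.

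Genes of late NK stages and of effector function were lower. All 8 measured genes of the mature list lay below 0 in both libraries, where 29.8% of all genes did, with medians of -0.53 and -0.70. Without the barcodes of other lineages 7 of 8 did. Zeb2, a repressor needed for terminal NK maturation, was at 150 against 350 CPM and 145 against 268. Lgals1 was at 391 against 908 and 651 against 1033 CPM. Prf1 (chr10:61297833-61304680), the pore-forming perforin, was at 87.9 against 149 CPM in the control library, 1.70-fold lower (1.09 to 2.70). In the library labelled knockout it was at 37.6 against 270 CPM, 7.17-fold lower (4.07 to 13.8). The difference between the 2 ratios has no replicate. At 1000 UMIs Prf1 was seen in 7.32% and 0% of the members (0 of 82 cells, which allows a share with a UMI of up to 3.66%) and in 15.8% and 29.0% of granzyme-rich cells. Before thinning it was seen in 18.8% and 11.8% of the members and 38.3% and 56.0% of granzyme-rich cells.

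The rest of the killing machinery had smaller ratios. Of 17 measured genes outside the 3 granzymes of the rule, Prf1 included, 9 lay below 0 in both libraries and 1 above. Of all genes 29.8% lay below and 25.1% above in both. The medians were -0.24 and -0.54, and none was past 2-fold in both. Without the barcodes of other lineages 8 lay below and 4 above, with medians of -0.10 and -0.48, and 1 was at least 2-fold lower in both. Nkg7, a granule membrane protein, was at 935 against 1350 and 770 against 1617 CPM. Serpinb9, which protects killer cells from their own granzyme B, was at 150 against 228 and 182 against 397 CPM. Ctsw, an NK and T-cell cathepsin, was at 476 against 327 CPM in the control and 350 against 377 in the other. Its order over all members was thus not the same. In the members labelled knockout it was at 343 and 685 CPM in sub-clusters 1 and 2, described below. In sub-cluster 3, which held all 12 barcodes of other lineages, it was at 15.4 CPM.

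Among secreted factors, Ccl3, a chemokine, was at 70.9 against 255 CPM in the control and 60.8 against 227 in the other, 3.60-fold lower (2.32 to 5.80) and 3.74-fold lower (2.35 to 6.25). Ccl4, its close relative, was 4.82-fold lower (3.36 to 7.11) and 2.25-fold lower (1.72 to 2.97). In the members labelled knockout 1 cell held 61.9% of the Ccl3 and 1 cell 51.4% of the Ccl4 UMIs. Ifng was at 59.5 against 94.3 and 43.4 against 120 CPM. Ccl5, which attracts T cells and dendritic cells, was at 3631 against 5179 and 2034 against 3757 CPM. Of the 7 measured genes of the list, 4 lay below 0 in both libraries and Ltb alone above, with medians of -0.51 and -1.06. Of all genes 29.8% lay below and 25.1% above in both.

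Cell cycle genes were lower in granzyme-poor cells. All 21 measured genes lay below 0 in both libraries, where 29.8% of all genes did, with medians of -1.24 and -1.28. Past 2-fold in both were 8 of them, beside 0.843% of all genes. Mki67 was at 42.5 against 228 CPM in the control and 63.7 against 175 in the other, and Top2a, a mitotic topoisomerase, at 59.5 against 248 and 57.9 against 153. In the members 1 cell held 40.0% of the Mki67 UMIs in the control and 1 cell 40.9% in the other library. Without the barcodes of other lineages 15 genes were measured and all 15 lay below 0, with medians of -0.52 and -1.62. With each cell counted once, 23.6% of the control members had 3 or more cell cycle UMIs at 1000 UMIs against 44.2% of granzyme-rich cells, and in the other library 20.7% against 35.5%.

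Receptors and regulators showed no common order. Of 19 activating receptor and adaptor genes, 7 lay above and 10 below 0 in both libraries, with medians of -0.19 and -0.21. Of all genes 25.1% lay above and 29.8% below in both. Without the barcodes of other lineages 2 lay above and 8 below, with medians of -0.51 and 0.23, where 27.8% and 28.6% of all genes did. Klrb1b, which binds the ligand Clr-b, was at 278 against 110 and 269 against 148 CPM. Klra4 (Ly49D), an activating Ly49 receptor, was at 445 against 685 and 344 against 400 CPM, and was seen in 19.5% and 18.3% of the members at 1000 UMIs against 40.8% and 33.1% of granzyme-rich cells. Of 6 inhibitory receptors, 2 lay above and 2 below 0 in both. Klrc1 (NKG2A), a receptor for Qa-1 kept by early NK cells, was at 281 against 149 and 200 against 141 CPM. Of 28 transcription factors, 12 lay above and 7 below 0 in both, with medians of 0.14 and 0.03. Without the barcodes of other lineages 8 lay above and 8 below in both, with medians of -0.16 and 0.20. Ikzf2 (Helios) was at 215 against 87.4 and 119 against 59.9 CPM. Eomes (chr9:118478212-118486132), the defining T-box factor of NK cells, was at 360 against 338 CPM in the control and 176 against 242 in the other. At 1000 UMIs it was seen in 34.1% and 13.4% of the members, so they did not lack it. In granzyme-rich cells it was seen in 36.7% and 29.0%, so in the control its order was not that of the CPM. The NK core list had medians of 0.13 and -0.48, and of -0.20 and -0.14 without the barcodes of other lineages. In the members labelled knockout Eomes was at 414 and 175 CPM in sub-clusters 1 and 2. In sub-cluster 3, which held the 12 barcodes of other lineages, it was at 23.1 CPM. Tbx21 (T-bet) was at 136 against 101 and 89.7 against 88.1 CPM.

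The remaining lists are given by their medians. Of 26 genes of cytokine receptors and signalling, 8 lay above 0 in both libraries and 4 below, with medians of 0.25 and 0.08. The shares of all genes were 25.1% above and 29.8% below. Trafficking genes had medians of 0.28 and 0.06 over 18 genes. MHC class I genes had medians of 0.55 and 0.09, with 14 and 8 of 15 above 0, and without the 12 barcodes and their granzyme-rich counterparts 0.22 and 0.30, with 12 and 13 above. The medians were 0.00 and 0.08 for 21 dissociation stress, 0.01 and 0.27 for 13 mitochondrially encoded, and -0.02 and -0.09 for 30 interferon-stimulated genes. MHC class II genes had medians of 0.79 and 2.15, and without the 12 barcodes the value in the library labelled knockout was -1.38. Glycolysis and hypoxia genes had medians of -1.05 and 0.04, which were -0.44 and -0.61 without them, with 13 of 15 genes below 0 in both libraries where 28.6% of all genes were. ILC2-list genes had medians of -0.02 and 0.33 over 4, and of the ILC3 list Kit alone was measured.

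By the fixed rule for named genes, the largest mean ratios after Il7r, Cxcr6, Rora, Kit, Ltb and Socs3 belonged to Ppie, Zfp652, Ahcyl2, Fbxl20, Spata6 and Smim4. Their log2 ratios lay between 0.68 and 1.87, on 6 to 53 UMIs per class. The lowest after Prf1 were Rras2, Nrarp, C1qtnf6, Plekho2, Exoc6, Alad, Ptp4a3, Wdr95, Gpalpp1, Rnf126 and Aifm1, on 2 to 64 UMIs per class. Rras2 (-1.34 and -1.74), Plekho2 (-1.35 and -1.25) and Exoc6 (-1.12 and -1.40) were past 2-fold in both libraries. Rnf126 was at -2.16 in the control and only -0.13 in the other.

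**Figure D2:**
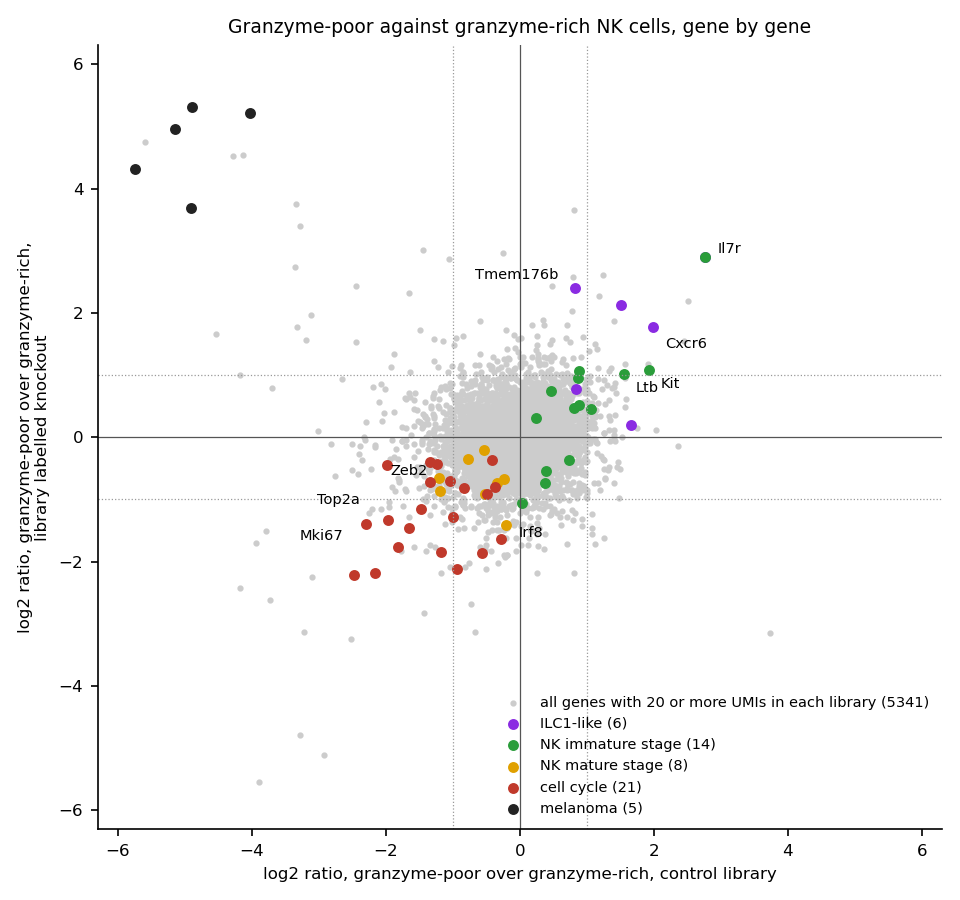
Log2 ratio of granzyme-poor over granzyme-rich NK cells for 5341 genes, control library on the x axis and library labelled knockout on the y axis, with dotted lines at 2-fold. Il7r, drawn as an early-stage gene, belongs to both coloured lists at upper right, cell cycle genes lie in the lower left quadrant, and the 5 melanoma genes at upper left have opposite signs, 1 barcode holding 98.9% of their UMIs in control granzyme-rich cells and 97.7% in granzyme-poor cells labelled knockout.

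The members were not uniform. Clustering them without the rule genes, interferon-stimulated genes and sex-linked, mitochondrial or ribosomal genes gave 3 sub-clusters of 103, 94 and 16 cells. Every clustered gene took part in the split, so the values below are a description. A marker is called detected by limits of 0.5 on its log2 ratio over the other members and 10% on the cells with a UMI. Presence alone did not count, as for Klrk1, seen in 95 of the 103 cells of sub-cluster 1. Sub-cluster 1 was NK-like by its markers (Eomes, Nkg7, Prf1, Il2rb, Tyrobp and Klri2 detected) and was led by Klra9, Klra4, Klra8, Klra1 and Cmah. Sub-cluster 2 was ILC1-like, with 7 markers of that list detected (Cxcr6, Tnfsf10, Cd200r1, Il7r, Tmem176a, Tmem176b and Inpp4b), 3 of them among its 10 leading genes, and was led by Inpp4b, Cxcr6, Cd226, Cited4 and Ly6c2. It also had 8 markers of the early NK list, 3 among its 10 leading genes, and sub-cluster 1 had 7. Of the NK core list 5 were detected in sub-cluster 2 (Tbx21, Nkg7, Il2rb, Id2 and Cd7), beside 6 in sub-cluster 1. Of the ILC2 list 3 were (Gata3, Rora and Lmo4), and none of these NK core or ILC2 markers was among its leading genes. At a resolution of 1, 49 cells of sub-cluster 2 formed a group led by Socs2 and 36 a group led by Cxcr6. Sub-cluster 3 was led by the MHC class II genes H2-Ab1, H2-Eb1, Cd74 and H2-Aa and by Spi1, against the NK name.

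The Klra genes that led sub-cluster 1 lie with Klra7 within chr6:130043731-130386874 (GRCm38), a stretch of 343 kb. Klra4 was at 908 CPM in the control cells of sub-cluster 1 and 1184 in those labelled knockout, against 21.2 and 83.8 in sub-cluster 2. Eomes was at 625 and 414 CPM in sub-cluster 1 and 149 and 175 in sub-cluster 2. Kit was at 259 and 94.7 CPM in sub-cluster 1 and 56.6 and 122 in sub-cluster 2, so its order was not the same in the libraries. Ccl5 was at 5570 and 4085 against 2002 and 2269 CPM. Among the rule genes, 34.0% of sub-cluster 1 and 66.0% of sub-cluster 2 held 0 granzyme UMIs. Gzma was at 618 CPM in sub-cluster 1 and 99.0 in sub-cluster 2, while Gzmb was at 35.4 and 51.3 and Gzmc at 7.87 and 84.3.

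Sub-cluster 2 held most of the Cxcr6 and Il7r. Cxcr6 was at 120 and 183 CPM there and at 0 and 11.8 in sub-cluster 1. Il7r was at 269 and 419 CPM against 106 and 59.2, the last from 5 UMIs in 2 cells. Xcl1, the chemokine that attracts cross-presenting dendritic cells, was at 1316 and 1142 CPM in sub-cluster 2 and 318 and 509 in sub-cluster 1. Ncr1, a gene of the rule, was at 623 and 685 against 448 and 533. The summed ILC1-like list was at 1295 and 1363 CPM in sub-cluster 2 and 171 and 142 in sub-cluster 1. Of the 18 members with 1 CD3 UMI, 12 lay in sub-cluster 2 and 6 in sub-cluster 1, and T-cell genes outside the rule summed to 66.0 CPM in sub-cluster 2 and 35.4 in sub-cluster 1.

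Eomes and the ILC1-like genes were counted cell by cell. At 1000 UMIs, 7 control members had both, 35 had Eomes only, 42 had an ILC1-like gene only and 39 had neither. In the library labelled knockout the numbers were 2, 9, 29 and 42. Of granzyme-rich cells 2 of 120 and 1 of 124 had both. At this depth a gene that is present is often missed.

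Sub-cluster 3 had a median of 8856 UMIs, against 2343 and 2615.5 in the other two, and held all 12 barcodes with at least 1% of UMIs of other lineages. Its NK core genes summed to 3752 CPM against 9058 and 8329, and its MHC class II genes to 23410 CPM in the control and 23761 in the cells labelled knockout. Of the dendritic-cell list 8 markers were detected, and Ncr1 was at 0 and 30.8 CPM.

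**Figure D3:**
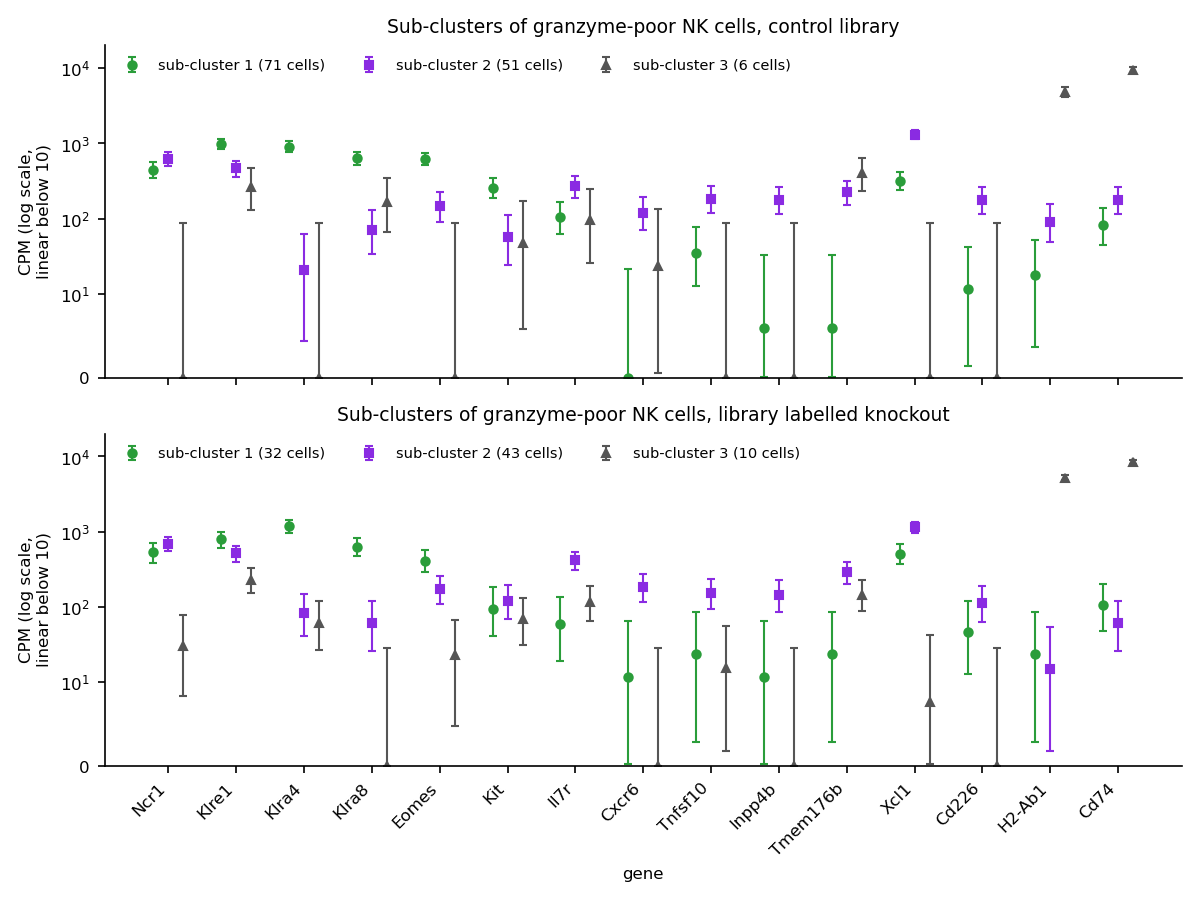
Level of 15 genes in the 3 sub-clusters of granzyme-poor NK cells in each library, in CPM on a log axis that is linear below 10, with exact Poisson 95% intervals. Klra4, Klra8 and Eomes are highest in sub-cluster 1, Cxcr6, Inpp4b, Cd226 and Xcl1 in sub-cluster 2, and H2-Ab1 and Cd74 in sub-cluster 3.

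Between the libraries, dendritic-cell and melanoma genes were higher in the members labelled knockout, in 7 of 7 and 5 of 5 measured genes, and without the 12 barcodes 0 of 4 dendritic-cell genes were and 0 melanoma genes had enough UMIs. Of 5215 genes with at least 20 UMIs, 204 (3.91%) were at least 2-fold higher and 279 (5.35%) at least 2-fold lower in the library labelled knockout, with a median of -0.15. When ratios were centred on the median gene the numbers were 260 and 192. Without the 12 barcodes, 71 of 4451 genes (1.6%) were higher and 198 (4.45%) lower, with 41.5% above 0 and a median of -0.09.

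Of the early-stage list 2 of 14 genes and of the late-stage list 2 of 7 were at least 2-fold lower, beside 5.35% of all genes. Without the 12 barcodes none was, beside 4.45% of all genes. Among genes of all lists, 5 were picked after their values were seen. Tcf7 was at 360 and 153 CPM, 2.35-fold lower (1.69 to 3.30). Ccr2, a chemokine receptor for entry into inflamed tissue, was at 867 and 388 CPM, 2.24-fold lower (1.82 to 2.76). Klra7 was 2.23-fold lower (1.59 to 3.16), Eomes 2.04-fold lower (1.49 to 2.82) and Rora 2.29-fold lower (1.44 to 3.73). None of these 5 stayed past 2-fold without the 12 barcodes, where the log2 ratios were -0.74 for Tcf7, -0.57 for Ccr2, -0.59 for Klra7, -0.49 for Eomes and -0.86 for Rora. All 5 kept their direction. Sub-cluster 1 held 71 of 128 control members and 32 of 85 members labelled knockout. Values within it are a description, since the genes were picked after their values were seen and the intervals cover counting error only. Within sub-cluster 1 Tcf7 was at 495 CPM (395 to 613) in the control and 225 (135 to 351) in the cells labelled knockout, intervals that do not overlap. Those of Eomes, 625 (511 to 756) and 414 (289 to 576), of Ccr2, 1079 (928 to 1247) and 923 (730 to 1152), and of Klra7, 572 (464 to 697) and 414 (289 to 576), overlapped.

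Some genes named above for granzyme-poor over granzyme-rich cells were lower in the library labelled knockout, as Rora was. Kit was 1.60-fold lower (1.02 to 2.55) and Socs2 2.10-fold lower (1.08 to 4.28). Without the 12 barcodes the log2 ratio of Kit was -0.35, beside -0.65 with them. The summed ILC3 list, nearly all Kit, was then at a ratio of 0.78 (0.47 to 1.25), an interval that includes 1. Within sub-cluster 1 Socs2 was at 29.5 and 23.7 CPM. Within sub-cluster 2 it was at 156 (97.5 to 236) and 68.5 (31.3 to 130), intervals that overlap. Ltb was at 621 and 636 CPM. Il7r was at 170 and 217 CPM, 1.28-fold (0.90 to 1.82), and Cxcr6 at 51.0 and 72.3, 1.42-fold (0.74 to 2.76), intervals that include 1. The ILC1-like list had a median of 0.13, with 3 of 6 genes above 0 where 40.7% of all genes were. Leaving out the 12 barcodes, it was 0.37 with 5 of 6 above, and the summed level 1.26-fold higher (1.03 to 1.53). The NK core list had a median of -0.28 with 3 of 13 above 0, and without the 12 barcodes 0.14 with 7 of 12 above.

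The medians of the other NK lists were -0.32 for early-stage, -0.05 for late-stage, -0.32 for activating receptor, -0.48 for inhibitory receptor, -0.20 for cytotoxic and -0.22 for cytokine and chemokine genes. They were -0.29 for cytokine receptor, -0.40 for transcription factor and -0.42 for trafficking genes, with 25 of 28 transcription factors below 0. With the 12 barcodes left out these medians were 0.16, 0.09, 0.14, 0.01, 0.01 and 0.26 for the first 6 lists, all of opposite sign, and -0.19, -0.19 and -0.08 for the last 3. Then 16 of 25 transcription factors were below 0. Of all genes 40.7% lay above 0 with the 12 barcodes and 41.5% without. MHC class I genes had a median of -0.16, and 0.17 without the 12 barcodes. The medians were 0.01 for dissociation stress, -0.04 for cell cycle and -0.01 for mitochondrially encoded genes. Monocyte genes had a median of -0.50 over 6 genes, Lyz2 and Ccr2 among them.

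Interferon-stimulated genes, which the type I interferon receptor switches on, had a median of 0.23 over 30 measured genes. Of these, 18 lay above 0, 9 were at least 2-fold higher and none was 2-fold lower. Of all genes 40.7% lay above 0, 3.91% were at least 2-fold higher and 5.35% at least 2-fold lower. Isg15, the substrate of Usp18, had 7 UMIs in the control members and 48 in those labelled knockout, 19.8 and 139 CPM, and 43.8% of the 48 came from 1 cell. Irf7, a factor that amplifies type I interferon, was at 22.7 and 110 CPM, with 52.6% of its UMIs in 1 cell. Ifitm1, a membrane protein that limits virus entry, was at 34.0 and 859 CPM, with 41.1% in 1 cell. Without the 12 barcodes the list's median was -0.14 over 23 genes, with 8 above 0, beside -0.09 for all genes. Then 1 gene was at least 2-fold higher and 1 at least 2-fold lower, where 1.6% and 4.45% of all genes were. The log2 ratios were then 0.78 for Isg15, 0.76 for Irf7, 1.27 for Ly6a, 0.64 for Bst2 and -0.02 for Ifitm1. Within sub-cluster 1 the list summed to 3407 CPM (3135 to 3696) in the control and 3812 (3407 to 4252) in the library labelled knockout, and within sub-cluster 2 to 4138 (3810 to 4488) and 3785 (3459 to 4133).

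Dendritic-cell genes had a median of 1.66, MHC class II genes 1.03, melanoma genes 4.37, and glycolysis and hypoxia genes 0.86 between the libraries. Without the 12 barcodes the values were -0.71, -0.45 and 0.03 for dendritic-cell, MHC class II, and glycolysis and hypoxia genes, and too few melanoma genes were left to measure. Macrophage and plasmacytoid dendritic-cell genes had medians of 0.22 and 0.48 over 3 genes each.

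**Figure D4:**
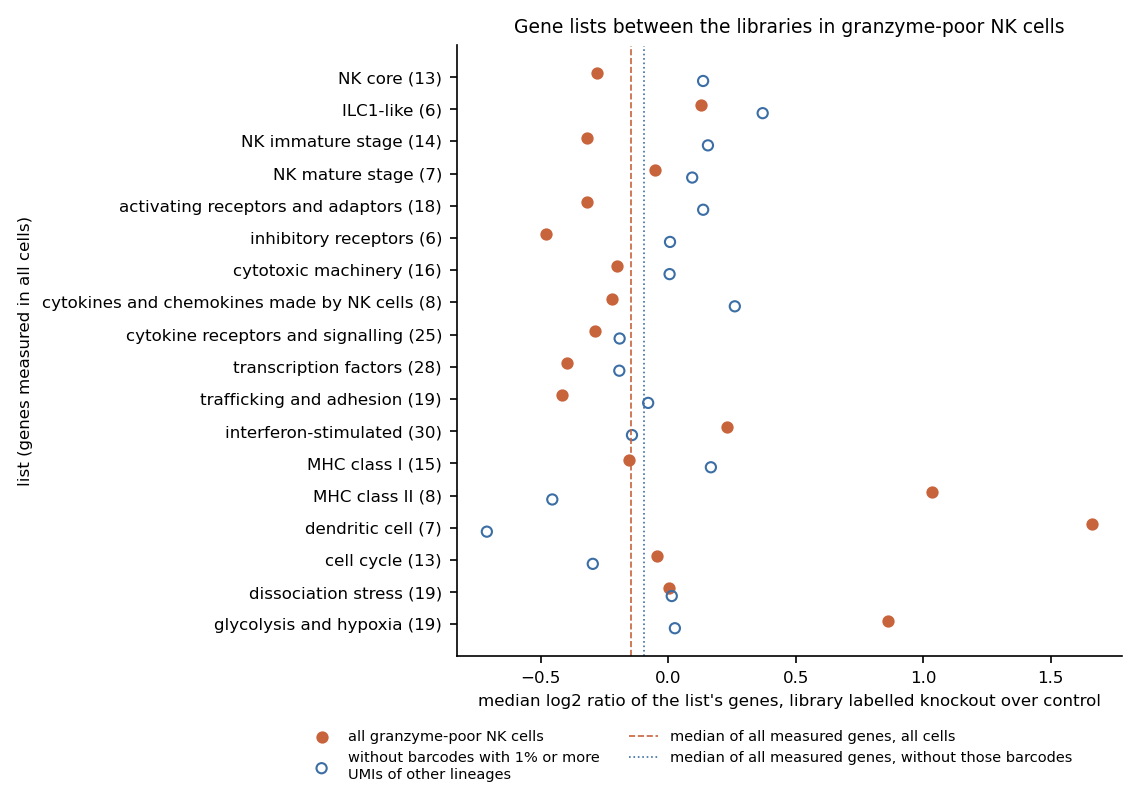
Median log2 ratio of 18 gene lists between the libraries in granzyme-poor NK cells, for all 213 cells (filled) and without the 12 barcodes with 1% or more of UMIs of other lineages (open), with the medians of all measured genes as dashed and dotted lines. The dendritic-cell and MHC class II medians move from 1.66 and 1.03 to -0.71 and -0.45, and the interferon-stimulated median from 0.23 to -0.14.

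The single genes of the rule for named genes rested on few UMIs. The 12 highest in the library labelled knockout were Zfp24, Pih1d1, Amica1, Rnf113a2, Ctsz, Mrpl11, Trim41, Acaa1a, Tmem230, Asl, Pfdn6 and Ado, with log2 ratios from 1.34 to 2.15. Amica1, a junctional adhesion molecule of leukocytes, had 9 and 38 UMIs, 25.5 and 110 CPM, 4.31-fold (2.05 to 10.1), and its log2 ratio without the 12 barcodes was 2.52. Ctsz, a lysosomal cathepsin, had 26 and 88 UMIs and a log2 ratio of 1.72, which was 0.75 without them. The 12 lowest were Cpne7, Nod1, Vps13d, Plxnc1, Itpk1, Tmc6, Smarcd2, Nvl, D1Ertd622e, Zfp518a, Gprin3 and Hmgn5, with log2 ratios from -2.19 to -1.76. Cpne7, a calcium-dependent phospholipid-binding protein, had 25 and 4 UMIs, 70.9 and 11.6 CPM, 6.12-fold lower (2.11 to 24.2). Plxnc1, the semaphorin 7A receptor, had 33 and 7 UMIs.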

How the data were processed

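Per the labels, live CD45+ cells of 4 tumors per group were profiled with 10x Genomics 3' v3 chemistry, and per the submitters' processing notes the authors used Cell Ranger 3.0.1 and mm10. The authors deposited UMI counts, unnormalized, for 27998 genes, of which 27645 matched GENCODE M21 (GRCm38), used for coordinates only. No doublet caller was run: the rule's upper limits, and leaving out barcodes with at least 1% of UMIs of other lineages, stand in for one.

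Counts of a class were added up within each library and given as CPM with exact Poisson intervals, and folds with exact conditional binomial intervals, at 95%. Ratios used a pseudocount of 5 CPM and genes with at least 20 UMIs. A log2 ratio of 1 counted as 2-fold. Phagocytes had at least 3 UMIs of the C1q genes, Csf1r and Ccr2, and B cells at least 3 of the Cd79 genes, both without NK receptor UMIs. Shares were taken after 1 seeded thinning to 1000 UMIs. The members were clustered on 1000 variable genes, 10 principal components and 15 neighbours with Leiden (leidenalg 0.10.2, resolution 0.5), in Python 3.11.15 with scikit-learn 1.9.0 and scipy 1.17.1. The code was tested on simulated data. With 1 library per group no test was made. The members and the 32 gene lists were chosen with earlier results of these data known. Named genes were those of the rule and lists, plus the 12 highest and lowest per contrast, without genes having over 20% of the UMIs of their higher side in 1 cell, sex-linked, mitochondrial, ribosomal and unnamed gene models, and the 5 leading genes per sub-cluster. Results on some genes are not reported here.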

Additional observations from a re-analysis of the deposited data

Results flagged for a closer look

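The melanoma genes had opposite orders in the libraries. Their median log2 ratio of granzyme-poor over granzyme-rich cells was -4.91 among control cells and 4.96 among cells labelled knockout, and the difference was not tested. In each library 1 barcode held most of the melanoma UMIs, 98.9% of them among control granzyme-rich cells and 97.7% among granzyme-poor cells labelled knockout.

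Xist, a transcript of female cells used here to split cells, was higher than in the control members, at 1250 CPM in the granzyme-poor cells labelled knockout and 488 CPM in the control ones, and Y-linked genes at 46.3 and 261 CPM. Host sex is not in the labels used here, and it cannot be told apart from the group except within cells split by these transcripts.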

How the results depend on the processing

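Each group has 1 library, so no library could be left out. No paired analysis was possible because the result comes from no test and each group has 1 library. List medians were held as unchanged when they moved by less than the 95% binomial interval of the list's median, and shares by less than their counting interval. Cells with Y-linked UMIs only were too few (11) for expression values. Counts of genes past 2-fold moved most. For the library contrast, the 204 higher and 279 lower genes were 175 lower at a mitochondrial limit of 5%, 108 higher at an NK receptor limit of 3, 335 higher in cells with Xist, 126 and 102 with a pseudocount of 20 CPM, 88 and 76 with at least 50 UMIs, 1032 and 1152 without a filter, 46 and 119 after thinning, and 71 higher and 198 lower without barcodes of other lineages. At a granzyme limit of 10 they were 145 and 338. For granzyme-poor over granzyme-rich cells in both libraries, the 18 higher and 45 lower were 53 and 14 at a granzyme limit of 10, 78 lower at an NK receptor limit of 3, 24 lower with 0 UMIs of other-lineage rule genes, 4 and 8 in cells with Xist, 7 and 22 with a pseudocount of 20 CPM, 10 and 13 with at least 50 UMIs, 86 and 147 without a filter, 32 and 32 with cells weighted equally, and 5 and 13 after thinning. A resolution of 1 gave 5 sub-clusters. The members' share of kept barcodes had a log2 ratio between libraries of -0.28, and of -0.85 with the 5% mitochondrial limit. For the granzyme-poor share of NK cells it was -0.35, and 0.10 among Y-linked cells alone.

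The cell cycle medians, -1.24 and -1.28 as reported, were -0.72 and -0.69 at a mitochondrial limit of 5%, -0.67 and -0.57 with 0 UMIs of other-lineage rule genes, -0.25 and -0.69 with cells weighted equally, and -0.57 and -0.23 after thinning. In the control library the median was -1.98 at an NK receptor limit of 3 and -0.52 without barcodes of other lineages. At a granzyme limit of 10, the control barcode of 88890 UMIs joins the granzyme-poor class with its 9 granzyme UMIs, and the control medians were 0.79 for cell cycle, 5.26 for melanoma, and 0.66 for glycolysis and hypoxia genes. The cell cycle median labelled knockout was then -0.73, and the melanoma median between libraries -0.55. Without barcodes of other lineages the medians of dendritic-cell and MHC class II genes turned negative between libraries (-0.71 and -0.45) and over granzyme-rich cells labelled knockout (-1.38 and -1.38). Medians nearer 0 changed sign too, some over granzyme-rich cells and, between libraries, those of the NK core, early, late, activating, inhibitory, cytotoxic, cytokine, MHC class I, ILC2 and interferon-stimulated lists. The ILC1-like medians over granzyme-rich cells lay from 0.95 to 2.10 in the control and from 1.27 to 2.95 in the other library under the 13 alternatives that gave a value. Between libraries the ILC1-like median lay from -0.27 to 0.37 under 15, on both sides of 0.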
